A study of Mus musculus with 15 samples.

Results

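The genes described here are 48 components of the machinery that copies DNA, from the proteins that mark replication origins to those that finish and disassemble the fork. They were chosen by name: a gene counted as a member if its symbol in the count tables, or the symbol its gene ID has in RefSeq where the table left it blank, was on the list. Of the 48 listed symbols 47 were found, and all 47 were among the 12721 genes tested, out of 13172 listed for any group. The symbol Claspn matched no gene; claspin is Clspn in mouse (gene ID 269582), and its values are given apart from the counts. RNA-seq was made from B16.F10, a transplantable mouse melanoma line, grown throughout in 1% oxygen. The 15 libraries form 5 groups of 3. Control cells received no treatment. NC_siRNA cells received a negative control siRNA and Hif1a_siRNA cells an siRNA against Hif1a, both reverse-transfected as lipoplexes at 25 nM. Dox cells received doxorubicin at 0.25 µM for 24 h, and Hif1a_siRNA_Dox cells received the Hif1a siRNA and, 24 h later, the same drug treatment. Cells outside the 2 Hif1a siRNA groups are labelled wild type. No group combined the negative control siRNA with doxorubicin, and how long drug-free transfected cells grew before harvest is not stated in the sources used here. Where a transfected group is set against an untransfected one, the effects of the lipoplex, the siRNA and the time since transfection therefore cannot be told apart. In Hif1a_siRNA_Dox against Hif1a_siRNA, the drug and the time since transfection cannot be told apart either.

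Replication starts at origins, where the 6-subunit origin recognition complex (ORC), with Cdc6 and Cdt1, loads the ring-shaped MCM2-7 helicase in G1 phase. In S phase the Cdc7-Dbf4 kinase, Mcm10, Cdc45 and the GINS complex turn that ring into an active helicase, behind which polymerase alpha-primase lays down primers and polymerases delta and epsilon, with the PCNA clamp, extend them. Many of these genes are transcribed at the G1/S transition under E2F transcription factors. HIF-1, of which Hif1a encodes the oxygen-regulated subunit, is known to restrain cell cycle entry in hypoxia, and doxorubicin poisons topoisomerase II and breaks DNA.

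Library totals ran from 23825110 to 28734303 counted reads. Hif1a fell in both siRNA groups, at 17.2 ± 1.6 CPM (SD, n = 3) against 274 ± 14 with the negative control siRNA, and at 13.1 ± 1.4 against 142 ± 8.9 under doxorubicin (log2 fold changes −3.99 ± 0.09 and −3.44 ± 0.09, edgeR adjusted p = 1.2e-20 and 6.7e-18). CPM is a gene's count relative to the library total, corrected by TMM factors, and levels below are CPM unless another unit is named. All 7 melanocyte lineage markers examined were listed, and their summed level ran from 13419 to 14554 in Control and 39687 to 46326 in Dox. With siRNA it ran from 8288 to 8955 in NC_siRNA, from 8998 to 9410 in Hif1a_siRNA and from 29679 to 36513 in Hif1a_siRNA_Dox. Not every marker followed the sum. In Hif1a_siRNA, Mitf and Tyr lay above every Control library and the other markers below. In NC_siRNA, Mitf and Sox10 lay above every Control library, Tyr overlapped Control and the others lay below. With doxorubicin 5 of the 7 rose, led in level by Tyrp1, Dct and Pmel, whereas Sox10 fell from 200 ± 7.1 in Control to 28.5 ± 2.7 in Dox and Tyr from 78.1 ± 5.3 to 57.9 ± 3.5. None of the markers of leukocytes (5 genes), endothelium (3) or keratinocytes and epithelium (4) was listed for any group. Of 5 fibroblast markers Col1a1, Pdgfra and Pdgfrb were listed, and Col1a2 and Dcn were not. The summed level of the 3 listed ones ran from 19.8 to 24.5 over the drug-free libraries, from 54.8 to 80.7 in Dox and from 87.9 to 109.7 in Hif1a_siRNA_Dox. Col1a1 ran from 5.335 to 5.647 in Control and from 33.04 to 57.18 in Dox. Pdgfrb did not follow the sum in Dox, where its 17.3 to 19.99 lay within its drug-free range of 13.85 to 21.43. Mitochondrial genes took 1.379% to 2.112% of reads in the drug-free libraries and 3.37% to 5.074% in the drug-treated ones. The summed melanocyte markers were thus lower in both drug-free transfected groups and higher in both drug-treated ones than in Control, and the fibroblast sum and the mitochondrial share were higher in the drug-treated groups. Their part in the results below was not tested. Nothing states that the 3 biological replicates of a group were grown as separate cultures, and p-values therefore reflect only how far these samples spread, which may be technical.

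The promoters of the members are shown first, and whether their motifs bear on the changes below was not tested. RefSeq windows on GRCm38.p6, 250 bases before to 50 after an annotated start site, were found for 39 of the 47 members. An E2F site was searched as TTTCCCGC, TTTCGCGC, TTTGCCGC or TTTGGCGC on either strand. At least 1 window of 15 of the 39 members held such a site (38.5%), against 474 of 9552 tested genes with a window (4.96%) and 2.26% of all 32851 windows. The 21 sites lay in Mcm3, Mcm5, Mcm6, Mcm7, Orc1, Orc3, Cdc6, Cdt1, Gins3, Rfc3, Pola1, Pold1, Pold3, Pole2 and Lig1, and 1 of them, in Mcm7, shared bases with a CCAAT box. A CCAAT box (CCAAT) stood in 56.4% of members against 44.0% of tested genes, and the cell cycle homology element (TTTGAA or TTCGAA) in 23.1% against 16.5%. The core of the hypoxia response element (ACGTG or GCGTG) stood in 69.2% of members and 68.7% of tested genes. These are matches of letters in a window, not measured sites of binding. Below are 5 windows, 5′ to 3′ on the gene's own strand, with E2F sites in capitals: Mcm6, with 3 sites of which 2 overlap; Mcm5, whose 2 sites on opposite strands overlap; Cdc6 and Orc1, which rose most of their role groups under doxorubicin; and Orc3, which fell most.
Mcm6, chr1:128359656-128359955, minus strand: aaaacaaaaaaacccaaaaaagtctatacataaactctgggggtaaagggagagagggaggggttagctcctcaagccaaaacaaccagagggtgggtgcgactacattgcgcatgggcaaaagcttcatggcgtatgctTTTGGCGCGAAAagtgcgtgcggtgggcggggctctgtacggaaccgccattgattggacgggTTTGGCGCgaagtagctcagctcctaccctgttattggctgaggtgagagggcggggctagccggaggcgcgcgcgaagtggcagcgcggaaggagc
Mcm5, chr8:75109259-75109558, plus strand: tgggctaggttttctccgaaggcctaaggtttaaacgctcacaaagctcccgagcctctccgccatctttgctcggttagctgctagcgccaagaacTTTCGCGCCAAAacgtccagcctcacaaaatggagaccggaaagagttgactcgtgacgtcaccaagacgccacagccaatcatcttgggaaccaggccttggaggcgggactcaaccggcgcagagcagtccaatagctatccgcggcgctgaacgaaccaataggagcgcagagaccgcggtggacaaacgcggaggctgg
Cdc6, chr11:98907901-98908200, plus strand: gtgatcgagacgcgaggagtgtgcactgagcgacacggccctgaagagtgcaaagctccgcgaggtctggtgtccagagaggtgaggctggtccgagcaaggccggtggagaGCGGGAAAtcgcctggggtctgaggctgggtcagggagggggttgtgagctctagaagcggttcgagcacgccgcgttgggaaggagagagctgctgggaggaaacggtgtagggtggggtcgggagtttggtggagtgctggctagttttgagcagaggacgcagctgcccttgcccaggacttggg
Orc1, chr4:108579204-108579503, plus strand: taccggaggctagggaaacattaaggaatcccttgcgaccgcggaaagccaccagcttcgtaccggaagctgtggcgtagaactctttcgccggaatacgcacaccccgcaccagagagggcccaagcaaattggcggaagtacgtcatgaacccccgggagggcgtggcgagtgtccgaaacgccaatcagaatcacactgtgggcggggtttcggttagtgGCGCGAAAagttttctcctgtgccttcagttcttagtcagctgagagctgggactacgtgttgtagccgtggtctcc
Orc3, chr4:34614893-34615192, minus strand: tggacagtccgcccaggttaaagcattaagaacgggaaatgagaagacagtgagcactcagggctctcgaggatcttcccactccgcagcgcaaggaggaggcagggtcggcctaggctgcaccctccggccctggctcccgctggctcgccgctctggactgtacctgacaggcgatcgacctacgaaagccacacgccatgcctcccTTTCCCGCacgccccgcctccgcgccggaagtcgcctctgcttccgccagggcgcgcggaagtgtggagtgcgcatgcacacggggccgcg
In Mcm6 the sites begin 110, 106 and 47 bases before the start site, in Cdc6 138, in Orc1 27 and in Orc3 41 bases before it. A site was present in 10 of 24 members with a window that rose under doxorubicin (41.7%) and in 3 of 11 that fell (27.3%: Orc3, Pold3 and Pole2). Of the 4 members with a window that were not called, 2 held a site (50.0%). Whether the site bears on the change with the drug was not tested.

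Of the 47 members 44 rose when Hif1a was knocked down, 37 fell with the negative control siRNA, and doxorubicin split the set. The summed level of the 47 members was 1752 ± 26.9 CPM in Control, 3194 ± 41.2 in Dox, 1191 ± 28.5 in NC_siRNA, 2649 ± 21.6 in Hif1a_siRNA and 2931 ± 122 in Hif1a_siRNA_Dox. As an uncorrected share of reads, members took 0.152% to 0.1533% in Control, 0.288% to 0.2969% in Dox, 0.1205% to 0.1241% in NC_siRNA, 0.3135% to 0.3139% in Hif1a_siRNA and 0.2882% to 0.3243% in Hif1a_siRNA_Dox. NC_siRNA was lowest and the other 3 treated groups lay above Control on both scales. The order of Hif1a_siRNA and Dox depends on the scaling: Dox is above with TMM and below as a share of reads. By group mean, the highest level lay in Hif1a_siRNA for 16 members, in Dox for 15, in Hif1a_siRNA_Dox for 13, in Control for 3 and in NC_siRNA for none. The lowest lay in NC_siRNA for 32 members, in Dox for 8, in Control for 4 and in Hif1a_siRNA_Dox for 3. The same was not counted over all tested genes, so whether this order is particular to the members is not known. In bulk RNA, a different share of cells in S phase and a different amount of RNA per cell cannot be told apart.

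**Figure D1:**
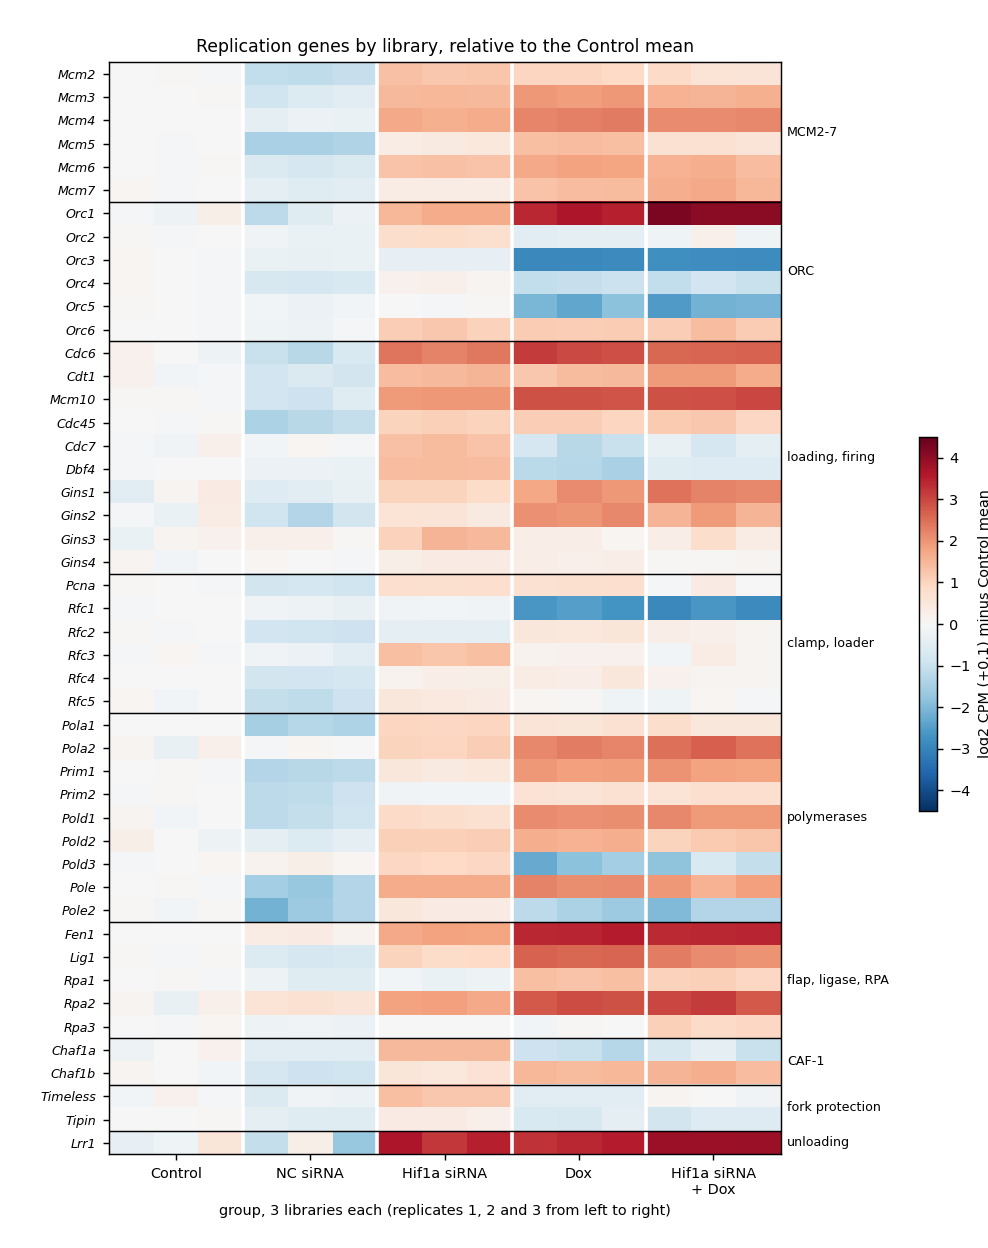
Level of the 47 members in each of the 15 libraries, as log2 of CPM plus 0.1 minus the Control mean, with members in rows by role and libraries in columns by group; red is above and blue below Control. NC_siRNA is the palest to blue block for most rows, Hif1a_siRNA is red in most rows, and Orc3, Orc5 and Rfc1 are blue in both drug-treated groups, where Orc1, Mcm10 and Fen1 are dark red.

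The knockdown comparison set Hif1a_siRNA against NC_siRNA and asks what loss of Hif1a mRNA changes. Of 47 members 44 rose, 35 of them at least 2-fold, and Orc3 (−0.06), Orc5 (0.16) and Rfc1 (0.09, log2 fold changes) did not pass. The median log2 fold change was 1.58 over members and 0.06 over all tested genes. Among all tested genes 36.4% were called higher, and 11.5% higher by at least 2-fold. No member was lower by edgeR's quasi-likelihood test (Benjamini-Hochberg, adjusted p under 0.05), nor at an unadjusted p under 0.05, nor by DESeq2 or limma-voom, while 31.2% of tested genes were called lower. With only these 2 groups in the fit, Orc3 was called lower (−0.11, edgeR adjusted p = 0.028). The calls of Rpa1 and Rpa3, both at 0.22, were the weakest. Both were lost with RLE size factors (edgeR adjusted p = 0.051 and 0.068) and with DESeq2 (adjusted p = 0.057 and 0.061), and that of Rpa1 also with only these 2 groups (edgeR adjusted p = 0.11). Rpa1 was not called without replicate 2 (0.16) or 3 (0.17) of NC_siRNA or replicate 1 of Hif1a_siRNA (0.18). Rpa3 was not called without replicate 3 of NC_siRNA (0.20) or replicate 1 or 2 of Hif1a_siRNA (0.21 each).

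The baseline of that comparison, NC_siRNA, itself lay below untreated cells for most members. In NC_siRNA against Control 37 members fell, 12 of them at least 2-fold, and Rpa2 (0.62) and Fen1 (0.28) rose, with a median of −0.65 against −0.01 over all genes. Of all tested genes 33.7% were called lower and 33.1% higher, and 6.97% lower by at least 2-fold. The call of Fen1 was lost without replicate 1 (0.26, edgeR adjusted p = 0.053) or replicate 2 (0.25, edgeR adjusted p = 0.059) of NC_siRNA. Against untreated cells, Hif1a_siRNA still had 40 members higher, 22 of them at least 2-fold, with a median of 0.93 against 0.06 over all genes. Orc3 (−0.37), Rfc2 (−0.45) and Rpa1 (−0.21) were lower there; the call of Rpa1 was lost without replicate 2 of Control (−0.18) or of Hif1a_siRNA (−0.17). Leaving out 1 library also lost the calls of Orc4, Gins2, Rfc4 and Pole2 among the higher members. In that comparison 40.2% of tested genes were called higher and 34.2% lower, and 15.7% higher by at least 2-fold. The 3 comparisons share groups with each other, so their values are given side by side and not as independent results.

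The doxorubicin comparison set Dox against Control and asks what the drug does to untransfected hypoxic cells. Here 31 members rose, 24 of them at least 2-fold, and 12 fell, 9 of them at least 2-fold, with a median of 1.08 against 0.10 over all genes. Gins3 (0.23), Rfc3 (0.18), Rfc5 (−0.01) and Rpa3 (−0.02) did not pass. Among tested genes 43.9% were called higher and 39.8% lower, and 26.8% and 24.5% by at least 2-fold. The call of Gins4 (0.28) was lost without replicate 2 of Control (0.22, edgeR adjusted p = 0.064). Scaling by upper-quartile factors moved the median of all genes up by 0.126 in this comparison, and the counts were then 32 higher and 12 lower.

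**Figure D2:**
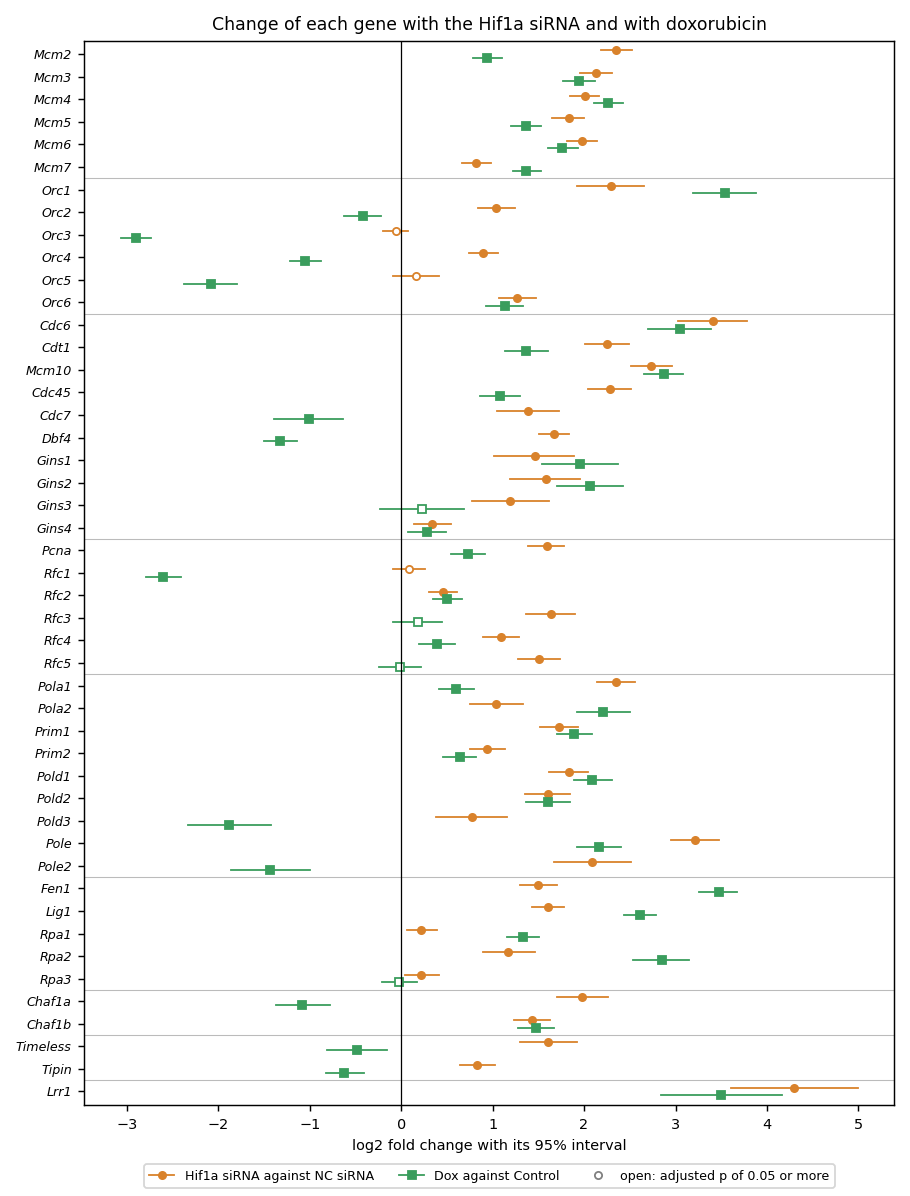
Log2 fold change of each member with its 95% interval, for Hif1a_siRNA against NC_siRNA (circles) and Dox against Control (squares), by role; open symbols did not pass an adjusted p of 0.05. Circles lie right of 0 for nearly all members, while 12 filled squares lie left of it, from Orc2 at −0.42 to Orc3 at −2.90.

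All 6 subunits of the MCM2-7 helicase, which unwinds DNA ahead of the fork, rose in both comparisons. With the Hif1a siRNA their log2 fold changes ran from 0.82 (Mcm7) to 2.35 (Mcm2), and with doxorubicin from 0.94 (Mcm2) to 2.26 (Mcm4). Mcm2 (gene ID 17216, chromosome 6, 88883474 to 88898780 of mm10, as are all positions below) stood at 86.4, 87.9 and 79.7 CPM in Control and 164, 164 and 159 in Dox, and of the transfected cells at 39.0, 38.2 and 41.6 in NC_siRNA, 209, 198 and 200 in Hif1a_siRNA and 153, 130 and 126 in Hif1a_siRNA_Dox. Its 3 Hif1a_siRNA libraries were the highest of all and its 3 NC_siRNA libraries the lowest, and no group overlapped another, with Hif1a_siRNA_Dox just below Dox. It rose by 2.35 ± 0.08 (log2 fold change ± SE, as below) with the Hif1a siRNA (edgeR adjusted p = 8.5e-18) and by 0.94 ± 0.07 with doxorubicin (edgeR adjusted p = 2.6e-11). Mcm4 (chromosome 16, 15623897 to 15637400) stood at 32.5, 32.6 and 32.0 CPM in Control and 149, 155 and 163 in Dox, and of the transfected cells at 24.4, 26.6 and 26.2 in NC_siRNA, 107, 99.3 and 104 in Hif1a_siRNA and 142, 143 and 144 in Hif1a_siRNA_Dox. Its order differed from that of Mcm2: Dox was highest, every Dox library was above every Hif1a_siRNA_Dox library, and both were above Hif1a_siRNA. The changes of Mcm4 were 2.01 ± 0.07 with the siRNA (edgeR adjusted p = 2.4e-17) and 2.26 ± 0.07 with the drug (edgeR adjusted p = 6.9e-19). Mcm7 was the only subunit whose mean was highest with both treatments, at 240 ± 16 against 204 ± 10 in Dox, 99.6 ± 0.56 in Hif1a_siRNA and 78.7 ± 4.3 in Control. Mcm5 fell most with the negative control siRNA, from 37 ± 1.2 to 13.8 ± 0.55 (−1.43 ± 0.08, edgeR adjusted p = 1.1e-12). Mcm3 was at 42.5 ± 1.4 in Control, 164 ± 5 in Dox, 26.8 ± 3.4 in NC_siRNA, 118 ± 0.93 in Hif1a_siRNA and 125 ± 3.7 in Hif1a_siRNA_Dox. Mcm6 followed the same order, at 47.8 ± 2 in Control, 163 ± 4.4 in Dox, 29.7 ± 1.3 in NC_siRNA, 117 ± 1.5 in Hif1a_siRNA and 138 ± 13 in Hif1a_siRNA_Dox. After the siRNA the drug left Mcm3 at 0.09 (not called) and Mcm6 at 0.24. The difference from the drug effect without siRNA was −1.86 ± 0.11 for Mcm3 (edgeR adjusted p = 1.6e-12) and −1.52 ± 0.10 for Mcm6 (edgeR adjusted p = 1.9e-11). Per kilobase of merged exons the 6 subunits, which form a ring of equal copies, lay within 1.97-fold of each other in Control and in Dox. They lay within 3.68-fold in NC_siRNA, 2.57-fold in Hif1a_siRNA and 3.71-fold in Hif1a_siRNA_Dox. With the longest transcript as the length the ratios were 2.95 in Control, 2.45 in Dox and 4.67 in NC_siRNA. They were 4.01 in Hif1a_siRNA and 4.71 in Hif1a_siRNA_Dox.

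The origin recognition complex was split by doxorubicin. Orc1, the subunit whose level is known to cycle, and Orc6 rose, while Orc2, Orc3, Orc4 and Orc5 fell. Orc1 (chromosome 4, 108575705 to 108616030) stood at 3.18, 2.82 and 3.98 CPM in Control and 35.2, 42.6 and 38.4 in Dox, and of the transfected cells at 1.40, 2.23 and 2.71 in NC_siRNA, 9.45, 10.8 and 10.8 in Hif1a_siRNA and 64.3, 56.6 and 56.8 in Hif1a_siRNA_Dox. The drug-treated libraries lay far above the others, and all 3 Hif1a_siRNA_Dox libraries lay above all 3 Dox libraries. Orc1 rose by 3.54 ± 0.15 with the drug (edgeR adjusted p = 4.2e-16) and by 2.29 ± 0.17 with the siRNA (edgeR adjusted p = 2.1e-11). It rested on 39 to 92 reads in the Control and NC_siRNA libraries. Orc3 (chromosome 4, 34566781 to 34614963), a core subunit, stood at 148, 136 and 133 CPM in Control and 18.6, 18.6 and 18.7 in Dox, and of the transfected cells at 112, 111 and 112 in NC_siRNA, 107, 108 and 107 in Hif1a_siRNA and 20.4, 19.8 and 19.3 in Hif1a_siRNA_Dox. Its 6 drug-treated libraries lay between 18.6 and 20.4 and did not come near any of the 9 drug-free ones. It fell by 2.90 ± 0.07 with doxorubicin (edgeR adjusted p = 2e-20) and did not pass with the siRNA (−0.06 ± 0.06, edgeR adjusted p = 0.43). Orc6 (chromosome 8, 85299632 to 85308279), the smallest subunit, stood at 20.0, 20.3 and 19.2 CPM in Control and 43.5, 43.0 and 43.8 in Dox, and of the transfected cells at 17.5, 17.1 and 18.7 in NC_siRNA, 42.5, 45.7 and 40.5 in Hif1a_siRNA and 42.4, 52.0 and 43.6 in Hif1a_siRNA_Dox. Hif1a_siRNA, Dox and Hif1a_siRNA_Dox overlapped and lay above Control and NC_siRNA, with changes of 1.27 ± 0.09 in the siRNA comparison (edgeR adjusted p = 1.3e-11) and 1.13 ± 0.09 in the doxorubicin comparison (edgeR adjusted p = 4.1e-11). Orc5 went from 30.2 ± 1.1 to 7.15 ± 1.2 with the drug, Orc4 from 139 ± 7.1 to 67.4 ± 3.7 and Orc2 from 65.7 ± 2.5 to 49 ± 1.8. Per kilobase of merged exons, Orc3 was the highest and Orc1 the lowest subunit in Control (22.8 and 0.956 CPM per kb), and in Dox Orc6 was the highest and Orc5 the lowest (17.6 and 1.16). The same genes held these places with the longest transcript as length.

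**Figure D3:**
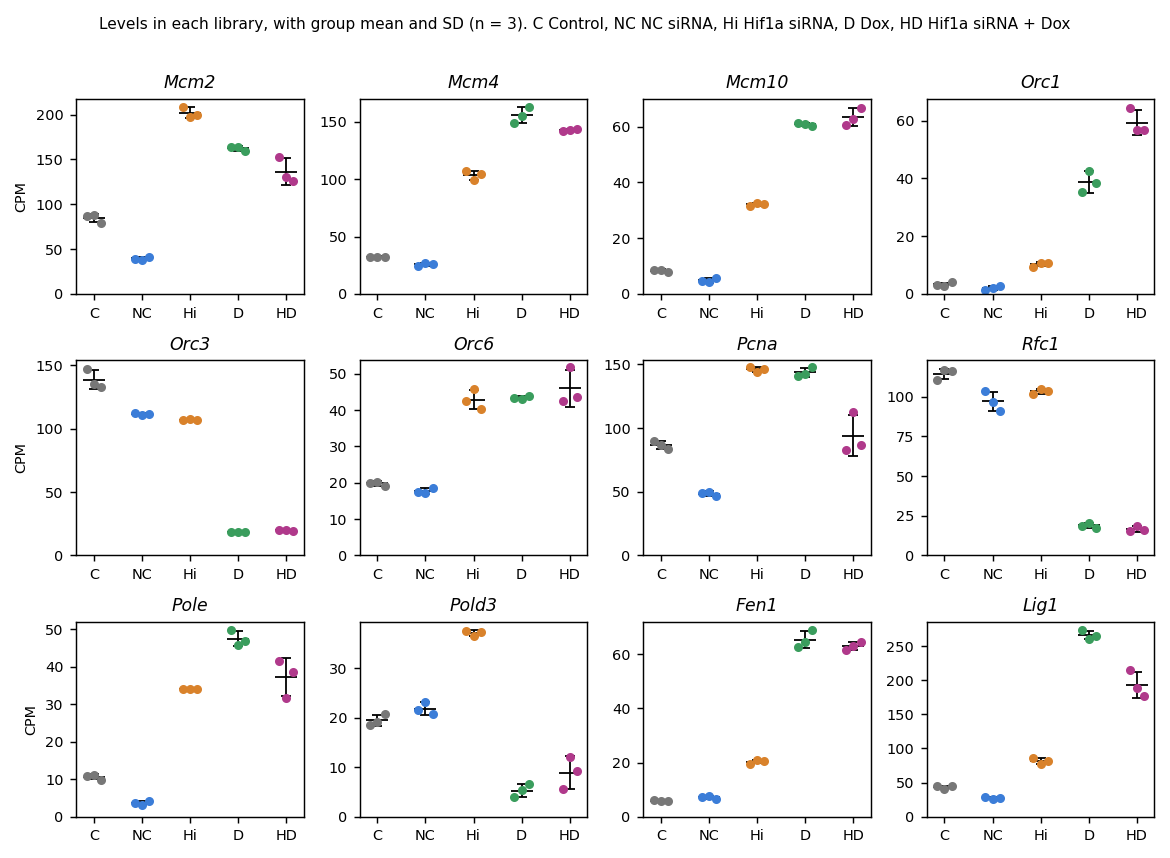
CPM of 12 members in each library, with coloured points for libraries, a horizontal mark for the group mean and bars for the SD (n = 3), each axis starting at 0. Orc3, Rfc1 and Pold3 are lowest in the 2 drug-treated groups, where Orc1, Mcm10, Fen1 and Lig1 are highest; Mcm2 is highest in Hif1a_siRNA.

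Of the 10 genes of helicase loading and firing all rose with the Hif1a siRNA, and with doxorubicin 7 rose, Cdc7 and Dbf4 fell and Gins3 did not pass. Cdc6, the ATPase that recruits MCM2-7 with ORC, went from 1.1 ± 0.23 in NC_siRNA to 11.7 ± 0.85 in Hif1a_siRNA (3.41 ± 0.17, edgeR adjusted p = 1.8e-14) and from 2.25 ± 0.33 in Control to 18.6 ± 1.7 in Dox (3.05 ± 0.15, edgeR adjusted p = 7.5e-15). Its loading partner Cdt1 was at 15.8 ± 1.9 in Control, 43.6 ± 2 in Hif1a_siRNA, 40.7 ± 3.8 in Dox and 56.9 ± 5.6 with both. Mcm10 (chromosome 2, 4990724 to 5012791), needed to activate the helicase, stood at 8.69, 8.55 and 7.75 CPM in Control and 61.2, 61.1 and 60.1 in Dox, and of the transfected cells at 4.53, 4.32 and 5.69 in NC_siRNA, 31.6, 32.7 and 32.4 in Hif1a_siRNA and 60.6, 62.9 and 66.8 in Hif1a_siRNA_Dox. The 2 drug-treated groups overlapped, and both lay above Hif1a_siRNA, which lay above Control and NC_siRNA. Mcm10 rose by 2.73 ± 0.10 with the siRNA (edgeR adjusted p = 9.2e-17) and by 2.87 ± 0.10 with the drug (edgeR adjusted p = 4.1e-18). The kinase that fires origins moved the other way with the drug in both of its subunits. Cdc7 (chromosome 5, 106964315 to 106984440), the catalytic subunit, stood at 6.31, 6.04 and 7.83 CPM in Control and 3.94, 2.73 and 3.33 in Dox, and of the transfected cells at 6.15, 7.14 and 6.25 in NC_siRNA, 16.7, 18.2 and 16.4 in Hif1a_siRNA and 5.27, 3.93 and 4.93 in Hif1a_siRNA_Dox. Dbf4 (chromosome 5, 8396969 to 8422725), its activator, stood at 39.7, 41.8 and 41.1 CPM in Control and 17.7, 16.7 and 14.6 in Dox, and of the transfected cells at 34.1, 33.7 and 32.9 in NC_siRNA, 106, 109 and 107 in Hif1a_siRNA and 27.8, 27.5 and 27.6 in Hif1a_siRNA_Dox. For both genes Hif1a_siRNA was above every other group without overlap and Dox was lowest by mean, though the Cdc7 libraries of Dox and Hif1a_siRNA_Dox overlapped. Cdc7 changed by 1.39 ± 0.15 with the siRNA (edgeR adjusted p = 2.3e-08) and −1.01 ± 0.17 with the drug (edgeR adjusted p = 8.1e-06). Dbf4 changed by 1.67 ± 0.08 (edgeR adjusted p = 3.9e-15) and −1.32 ± 0.08 (edgeR adjusted p = 2.6e-13). Cdc45, which joins MCM2-7 and GINS in the active helicase, was close to level across the 3 groups with the Hif1a siRNA or the drug, at 37.1 ± 1.4, 38.4 ± 2.1 and 39.3 ± 4, against 18.2 ± 0.65 in Control. Cdc45 had nevertheless fallen with the negative control siRNA, to 7.65 ± 0.93 (−1.25 ± 0.11, edgeR adjusted p = 9.1e-10). The 4 GINS subunits, which act as a tetramer, did not move alike with the drug: Gins1 (1.96) and Gins2 (2.06) rose, Gins4 rose slightly (0.28) and Gins3 did not pass (0.23). Gins1 was at 2.8 ± 0.82 in Control, 10.9 ± 1.5 in Dox, 1.94 ± 0.19 in NC_siRNA, 5.33 ± 0.4 in Hif1a_siRNA and 13.7 ± 1.4 in Hif1a_siRNA_Dox. Gins2 was at 5.51 ± 1.3 in Control, 23 ± 1.4 in Dox, 2.65 ± 0.46 in NC_siRNA, 7.9 ± 0.58 in Hif1a_siRNA and 17.6 ± 2.9 in Hif1a_siRNA_Dox. Gins3 was highest in Hif1a_siRNA, at 8.01 ± 1.4 against 3.5 ± 0.23 in NC_siRNA, 3.67 ± 0.33 in Dox and 4.36 ± 0.87 with both. Gins4 moved least, from 18.8 ± 1.7 in Control to 23.9 ± 1 in Hif1a_siRNA, and was the highest of the 4 per kilobase of merged exons in every group (13.9 to 17.7 CPM per kb, against 1.15 for Gins3 in Control).

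The clamp and its loader differed. Pcna (chromosome 2, 132249286 to 132253180), the sliding clamp that tethers polymerases, stood at 90.0, 86.4 and 83.9 CPM in Control and 141, 142 and 148 in Dox, and of the transfected cells at 49.3, 50.0 and 46.3 in NC_siRNA, 148, 144 and 146 in Hif1a_siRNA and 83.2, 113 and 86.4 in Hif1a_siRNA_Dox. Hif1a_siRNA and Dox overlapped at the top, NC_siRNA was lowest, and Hif1a_siRNA_Dox overlapped Control, with 1 library above and 1 below all Control libraries. Pcna rose by 1.59 ± 0.09 with the siRNA (edgeR adjusted p = 1.6e-13) and 0.73 ± 0.09 with the drug (edgeR adjusted p = 4e-08). A pseudogene copy, Pcna-ps2, held 56 to 278 reads per library beside 1246 to 4870 for Pcna, or 2.95% to 5.69% of their sum, and how the counting divided reads between the copies is not known. Rfc1 (chromosome 5, 65261852 to 65338617), the large subunit specific to the loader of PCNA, stood at 111, 117 and 116 CPM in Control and 18.6, 20.5 and 17.5 in Dox, and of the transfected cells at 104, 96.8 and 91.3 in NC_siRNA, 102, 105 and 104 in Hif1a_siRNA and 15.4, 18.7 and 15.8 in Hif1a_siRNA_Dox. Its 6 drug-treated libraries lay between 15.4 and 20.5 and the 9 others between 91.3 and 117. Rfc1 fell by 2.60 ± 0.09 with doxorubicin (edgeR adjusted p = 3.5e-18) and did not pass with the siRNA (0.09 ± 0.08, edgeR adjusted p = 0.32). Of the small subunits, which other clamp loaders share, Rfc2 (0.50) and Rfc4 (0.39) rose with the drug and Rfc3 and Rfc5 did not pass, while all 4 rose with the siRNA (0.46 to 1.64). Rfc3 was at 12.3 ± 0.76 in Control, 13.9 ± 0.25 in Dox, 9.86 ± 1.2 in NC_siRNA, 30.7 ± 1.3 in Hif1a_siRNA and 13.3 ± 2.1 in Hif1a_siRNA_Dox. Rfc5 was at 26.5 ± 2 in Control, 26.3 ± 2.6 in Dox, 12.6 ± 0.98 in NC_siRNA, 36.1 ± 1.9 in Hif1a_siRNA and 25.4 ± 2.4 in Hif1a_siRNA_Dox. For both the drug-treated groups lay near Control and below Hif1a_siRNA. Rfc4 was at 23.2 ± 0.23 in Control, 30.4 ± 2.6 in Dox, 13 ± 0.36 in NC_siRNA, 27.6 ± 1.4 in Hif1a_siRNA and 25.8 ± 0.45 in Hif1a_siRNA_Dox, and Rfc2, which was lower with either siRNA than in Control, at 70.1 ± 2.1 in Control, 99.5 ± 3.2 in Dox, 37.4 ± 1.1 in NC_siRNA, 51.4 ± 0.33 in Hif1a_siRNA and 81.7 ± 4.4 in Hif1a_siRNA_Dox. Per kilobase of merged exons Rfc1 was the highest of the 5 in Control, at 19.0 CPM per kb, and the lowest in Dox, at 3.13.

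All 9 genes of the polymerases and primase rose with the Hif1a siRNA, from 0.77 (Pold3) to 3.21 (Pole). With doxorubicin 7 rose, and the accessory subunits Pold3 and Pole2 fell. Pole (chromosome 5, 110286319 to 110337468), catalytic subunit of the leading-strand polymerase, stood at 10.8, 11.2 and 9.91 CPM in Control and 49.7, 45.9 and 46.9 in Dox, and of the transfected cells at 3.63, 3.22 and 4.17 in NC_siRNA, 34.0, 34.0 and 34.2 in Hif1a_siRNA and 41.6, 31.7 and 38.6 in Hif1a_siRNA_Dox. NC_siRNA was lowest and Dox highest, and Hif1a_siRNA_Dox overlapped Hif1a_siRNA between them, below every Dox library. It rose by 3.21 ± 0.12 with the siRNA (edgeR adjusted p = 1e-16) and 2.16 ± 0.11 with the drug (edgeR adjusted p = 5.8e-15). Pole2 (chromosome 12, 69201773 to 69228205), the second subunit of the same enzyme, stood at 12.8, 11.3 and 12.9 CPM in Control and 5.34, 4.49 and 3.86 in Dox, and of the transfected cells at 2.77, 3.92 and 4.91 in NC_siRNA, 17.5, 15.9 and 16 in Hif1a_siRNA and 2.99, 4.91 and 4.93 in Hif1a_siRNA_Dox. Its NC_siRNA, Dox and Hif1a_siRNA_Dox libraries overlapped below Control, and Hif1a_siRNA was highest. It rose by 2.09 ± 0.19 with the siRNA (edgeR adjusted p = 1.1e-09) and changed by −1.43 ± 0.19 with the drug (edgeR adjusted p = 2.9e-07). Pold1 (chromosome 7, 44532744 to 44548815), catalytic subunit of polymerase delta, stood at 25.2, 20.9 and 23.0 CPM in Control and 101, 95.2 and 99.1 in Dox, and of the transfected cells at 10.2, 10.9 and 12.2 in NC_siRNA, 41.9, 39.3 and 37.2 in Hif1a_siRNA and 103, 87.5 and 88.0 in Hif1a_siRNA_Dox. The 2 drug-treated groups overlapped above all others, and the changes were 1.83 ± 0.10 with the siRNA (edgeR adjusted p = 5.9e-14) and 2.09 ± 0.09 with the drug (edgeR adjusted p = 5.1e-16). Pold3 (chromosome 7, 100082110 to 100121502), which binds PCNA within the same enzyme, stood at 18.6, 19.2 and 20.7 CPM in Control and 3.94, 5.33 and 6.65 in Dox, and of the transfected cells at 21.6, 23.2 and 20.8 in NC_siRNA, 37.6, 36.6 and 37.4 in Hif1a_siRNA and 5.52, 12.0 and 9.24 in Hif1a_siRNA_Dox. Its drug-treated libraries were the lowest and spread widely, from 3.94 to 12.0. Pold3 changed by 0.77 ± 0.17 with the siRNA (edgeR adjusted p = 0.00071) and −1.88 ± 0.20 with the drug (edgeR adjusted p = 4.8e-08). Within polymerase alpha-primase, which starts each fragment, all 4 subunits rose with the drug, Pola2 by 2.21, Prim1 by 1.89, Prim2 by 0.64 and Pola1 by 0.60. With the siRNA the largest of the 4 was Pola1 (2.35) and the smallest Prim2 (0.94). Pola1 was at 27.9 ± 0.59 in Control, 42.4 ± 2.1 in Dox, 10.7 ± 0.81 in NC_siRNA, 54.6 ± 0.84 in Hif1a_siRNA and 42.5 ± 4.8 in Hif1a_siRNA_Dox. Pola2 was at 5.69 ± 1.1 in Control, 26.4 ± 1.4 in Dox, 5.63 ± 0.29 in NC_siRNA, 11.6 ± 0.6 in Hif1a_siRNA and 33 ± 3.3 in Hif1a_siRNA_Dox. The catalytic subunit was thus highest in Hif1a_siRNA and its partner in the combined group. Prim1, the catalytic primase subunit, was at 17.6 ± 0.72 in Control, 65.3 ± 2.8 in Dox, 7.35 ± 0.35 in NC_siRNA, 24.3 ± 0.88 in Hif1a_siRNA and 64.5 ± 5.8 in Hif1a_siRNA_Dox. Prim2 was at 35.1 ± 1.3 in Control, 54.8 ± 1.6 in Dox, 16.6 ± 1.5 in NC_siRNA, 31.8 ± 0.57 in Hif1a_siRNA and 57.4 ± 3.3 in Hif1a_siRNA_Dox, with Hif1a_siRNA close to Control. Pold2, the second subunit of polymerase delta, was at 12.4 ± 2.1 in Control, 37.7 ± 1.1 in Dox, 8.65 ± 0.54 in NC_siRNA, 26.2 ± 0.33 in Hif1a_siRNA and 27.2 ± 2.5 in Hif1a_siRNA_Dox, and it did not pass with the drug after the siRNA (0.05 ± 0.10, edgeR adjusted p = 0.65, difference −1.56 ± 0.15, edgeR adjusted p = 9.4e-09).

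Among the genes that finish the lagging strand and coat single-stranded DNA, 4 of 5 rose with the drug and all 5 with the siRNA, though Rpa1 and Rpa3 only narrowly, as given above. Fen1 (chromosome 19, 10199132 to 10204393), the nuclease that removes flaps, stood at 6.04, 5.86 and 5.84 CPM in Control and 62.7, 64.7 and 68.9 in Dox, and of the transfected cells at 7.41, 7.58 and 6.58 in NC_siRNA, 19.6, 20.8 and 20.5 in Hif1a_siRNA and 61.4, 63.0 and 64.7 in Hif1a_siRNA_Dox. Control was lowest, the drug-treated groups overlapped at the top, and Hif1a_siRNA lay between. Fen1 rose by 3.47 ± 0.09 with the drug (edgeR adjusted p = 7.4e-20) and 1.50 ± 0.09 with the siRNA (edgeR adjusted p = 6.4e-13). Lig1 (chromosome 7, 13277175 to 13311426), the ligase that seals the fragments, stood at 44.7, 41.1 and 44.7 CPM in Control and 273, 260 and 265 in Dox, and of the transfected cells at 28.3, 25.4 and 26.8 in NC_siRNA, 86.4, 77.1 and 81.0 in Hif1a_siRNA and 214, 189 and 176 in Hif1a_siRNA_Dox. Its 5 groups did not overlap, in the order Dox, Hif1a_siRNA_Dox, Hif1a_siRNA, Control and NC_siRNA. Lig1 rose by 2.61 ± 0.08 (edgeR adjusted p = 6e-19) and 1.60 ± 0.08 (edgeR adjusted p = 1.7e-14) in the same comparisons. Of RPA, the 3-subunit protein that coats single-stranded DNA, the large and middle subunits rose with the drug. Rpa1 was at 216 ± 8.3 in Control and 545 ± 19 in Dox (1.33 ± 0.08), and Rpa2 at 4.25 ± 0.87 and 30.6 ± 1.8 (2.85 ± 0.14). Rpa3, the small subunit, did not pass between Control and Dox, at 36.1 ± 2.3 and 35.7 ± 2.5 (−0.02 ± 0.08), and stood at 70.4 ± 5.7 in Hif1a_siRNA_Dox (0.98 ± 0.08 against Dox, edgeR adjusted p = 3.9e-09). Per kilobase of merged exons Rpa1 exceeded Rpa2 27.3-fold in Control and 9.58-fold in Dox. With the longest transcript as length Rpa3 was the highest of the 3 in Control.

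Chromatin assembly factor 1, which places histones H3 and H4 behind the fork, had its 2 listed subunits part with the drug. Chaf1b (chromosome 16, 93883900 to 93906115) stood at 28.7, 26.5 and 24.6 CPM in Control and 75.1, 72.3 and 74.3 in Dox, and of the transfected cells at 15.7, 14.0 and 14.2 in NC_siRNA, 38.4, 37.4 and 42.0 in Hif1a_siRNA and 77.8, 82.5 and 69.2 in Hif1a_siRNA_Dox. The drug-treated groups overlapped and lay above the rest, with changes of 1.43 ± 0.09 in the siRNA comparison (edgeR adjusted p = 1.7e-12) and 1.47 ± 0.09 in the doxorubicin comparison (edgeR adjusted p = 1.4e-13). Chaf1a, the large subunit, was at 24.7 ± 3.6 in Control, 68 ± 0.41 in Hif1a_siRNA and 11.7 ± 1.6 in Dox, and changed by 1.98 ± 0.13 and −1.08 ± 0.13. In the combined group it stood at 15.2 ± 3.2, which was −2.16 ± 0.13 from Hif1a_siRNA (edgeR adjusted p = 1.2e-13). The partners Timeless and Tipin, which hold the helicase and polymerases together, both fell with the drug and rose with the siRNA. Timeless (chromosome 10, 128232063 to 128252941) stood at 7.81, 9.83 and 7.96 CPM in Control and 6.13, 6.09 and 6.08 in Dox, and of the transfected cells at 5.36, 7.58 and 7.10 in NC_siRNA, 21.9, 19.9 and 19.6 in Hif1a_siRNA and 9.29, 8.38 and 7.57 in Hif1a_siRNA_Dox. Hif1a_siRNA was highest without overlap, every Dox library was below every Control library, and Hif1a_siRNA_Dox overlapped Control. Timeless changed by 1.61 ± 0.14 with the siRNA (edgeR adjusted p = 4.6e-10) and −0.48 ± 0.15 with the drug (edgeR adjusted p = 0.0043). Tipin (chromosome 9, 64281491 to 64305422) stood at 44.3, 45.2 and 46.6 CPM in Control and 28.0, 27.7 and 33.1 in Dox, and of the transfected cells at 34.2, 30.9 and 31.0 in NC_siRNA, 58.6, 58.9 and 53.8 in Hif1a_siRNA and 25.6, 30.3 and 30.1 in Hif1a_siRNA_Dox. Hif1a_siRNA was highest here too, and Dox overlapped both NC_siRNA and Hif1a_siRNA_Dox below Control. The changes were 0.83 ± 0.09 (edgeR adjusted p = 1.6e-08) and −0.62 ± 0.09 (edgeR adjusted p = 1.2e-06). Claspin (Clspn), the adaptor through which stalled forks activate the kinase Chk1, was at 8.77 ± 0.66 in Control, 9.64 ± 1.3 in Dox, 6.33 ± 1.1 in NC_siRNA, 24.1 ± 1.3 in Hif1a_siRNA and 11.6 ± 0.49 in Hif1a_siRNA_Dox. It rose with the siRNA (1.93 ± 0.13, edgeR adjusted p = 9.5e-12) and did not pass with the drug (0.14 ± 0.14, edgeR adjusted p = 0.36).

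Lrr1 (chromosome 12, 69168814 to 69179012), which directs a Cul2 ubiquitin ligase to the helicase when forks meet, so that it is taken off DNA, was nearly silent in Control and NC_siRNA. It stood at 0.529, 0.617 and 1.08 CPM in Control and 7.71, 8.36 and 9.31 in Dox, and of the transfected cells at 0.288, 0.879 and 0.149 in NC_siRNA, 9.92, 7.19 and 9.05 in Hif1a_siRNA and 11.6, 11.7 and 11.8 in Hif1a_siRNA_Dox. The 6 low libraries rest on 4 to 25 reads, and the 9 others on 176 to 360. Lrr1 gave the largest log2 fold change of any member with the siRNA, 4.30 ± 0.31 (edgeR adjusted p = 3.7e-11), and changed by 3.50 ± 0.30 with the drug (edgeR adjusted p = 2.1e-10). Cul2 itself, the scaffold of that ligase, was at 106 ± 3.9 in Control, 108 ± 3.9 in Hif1a_siRNA and 11.8 ± 0.86 in Dox. The receptor and its scaffold thus moved in opposite directions with doxorubicin (−3.16 ± 0.09 for Cul2, edgeR adjusted p = 1e-19).

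In cells that already carried the Hif1a siRNA, the change with doxorubicin was shifted downward for 36 of 47 members. The time since transfection may also differ between Hif1a_siRNA_Dox and Hif1a_siRNA, and it cannot be told apart from the drug. In Hif1a_siRNA_Dox against Hif1a_siRNA 21 members rose and 19 fell, with a median of 0.10 against 0.04 over all genes, while 42.6% of tested genes were called higher and 41.6% lower. Both member counts are near those shares. With upper-quartile factors, which moved the median of all genes up by 0.149, 26 were higher and 18 lower. The increases of Mcm5, Mcm6 and Cdc6 (0.25, 0.24 and 0.28) were the weakest of these calls: without replicate 1 of Hif1a_siRNA none of the 3 was called, and Cdc6 was not called without any 1 library of either group (edgeR adjusted p from 0.052 to 0.28). The difference between the 2 drug effects was tested as an interaction: 36 members were called lower, 2 higher (Orc3 and Rpa3) and 9 not called, with a median of −0.86 against −0.06 over all genes. Of all tested genes 32.3% were called lower and 26.3% higher in that test. Mcm2 is an example in which the sign turned. It was higher in Dox than in Control (0.94 ± 0.07) and lower in Hif1a_siRNA_Dox than in Hif1a_siRNA (−0.57 ± 0.07). The difference was −1.51 ± 0.10 (edgeR adjusted p = 2.7e-11). Pcna turned in the same way (0.73 and −0.63, difference −1.36 ± 0.12, edgeR adjusted p = 2.3e-09). Lrr1 had the largest difference, −3.07 ± 0.37 (edgeR adjusted p = 3.8e-07), and Cdc6 the next, −2.76 ± 0.20 (edgeR adjusted p = 8.7e-11). Orc3 (−2.90 without and −2.43 after the siRNA) and Rfc1 (−2.60 and −2.63) fell in both settings, and the difference passed for Orc3 (0.47 ± 0.10, edgeR adjusted p = 0.00026) but not for Rfc1 (−0.03 ± 0.12, edgeR adjusted p = 0.84). Mcm7 rose by 1.37 without and 1.27 after the siRNA (difference −0.10 ± 0.09, edgeR adjusted p = 0.36).

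**Figure D4:**
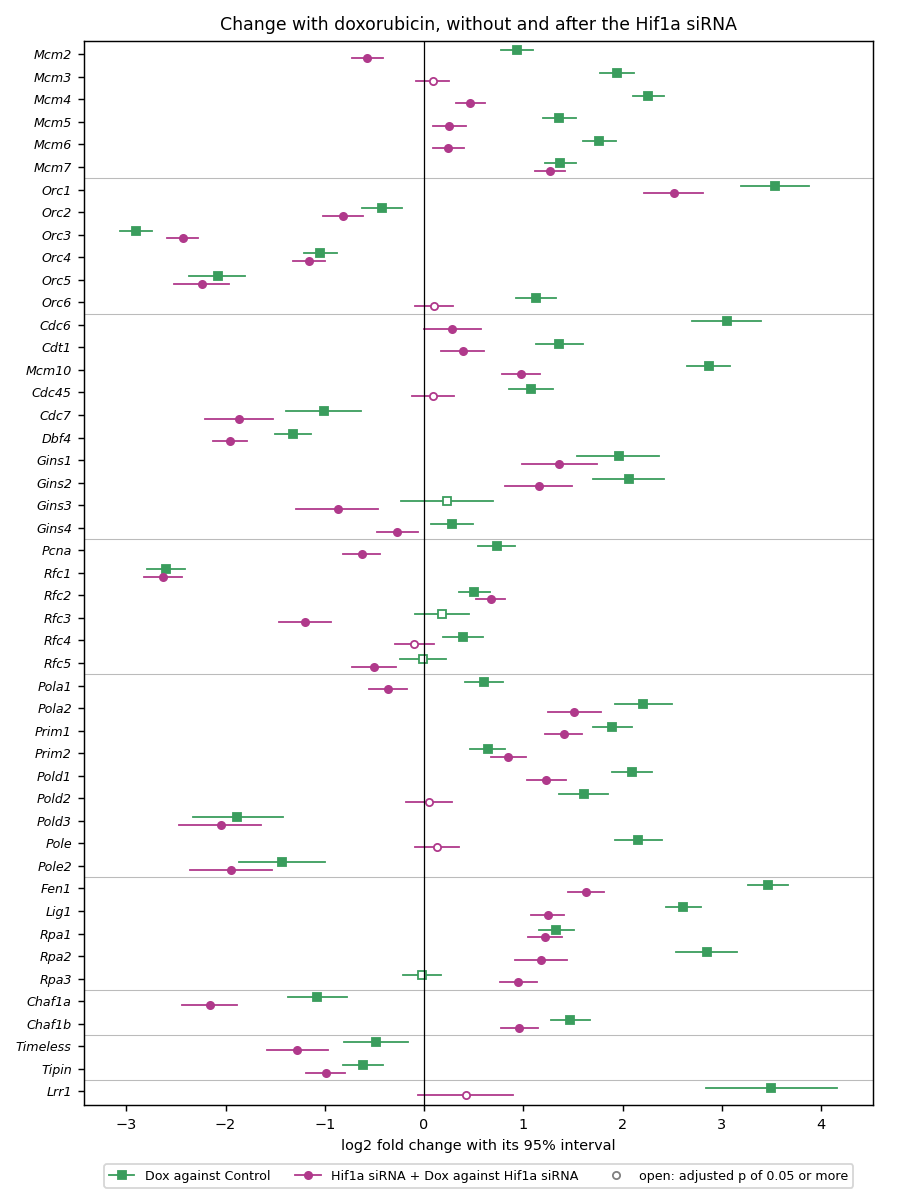
Log2 fold change of each member with doxorubicin and its 95% interval, without the siRNA (squares, Dox against Control) and after it (circles, Hif1a_siRNA_Dox against Hif1a_siRNA); open symbols did not pass. For 36 members the circle lies left of the square by a called difference, most for Lrr1 and Cdc6, while Orc3, Orc5 and Rfc1 have both symbols far left of 0.

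Set directly against each other, Hif1a_siRNA_Dox and Dox differed by less than 2-fold in every member. Calls of at least 2-fold were rare among all tested genes too, at 0.739% higher and 2.54% lower. Members called higher numbered 11 and lower 13, with a median of −0.02, and 21.5% of tested genes were called higher and 20.8% lower. The count of members called higher is near that share. The largest increase was that of Rpa3 (0.98), followed by Dbf4 (0.76 ± 0.08, edgeR adjusted p = 1.5e-07). Pold3 was at 0.75, and replicate 2 of Hif1a_siRNA_Dox decides that call, which without it stood at 0.45 (edgeR adjusted p = 0.064). Pold3 was 1 of 9 members whose call was lost when some 1 library was left out (edgeR adjusted p from 0.054 to 0.24). The others were Mcm6, Cdc6, Cdc7, Gins2, Rfc4, Pola2, Chaf1a and Timeless. The largest decreases were those of Mcm5 (−0.71 ± 0.07, edgeR adjusted p = 7.3e-08) and Pcna (−0.61 ± 0.09, edgeR adjusted p = 6.1e-06). In Hif1a_siRNA_Dox the libraries of these 2 genes stood at 59.5, 59.9 and 55.3 for Mcm5 and 83.2, 113 and 86.4 for Pcna, and in Dox at 94.2, 97.2 and 93.8 and 141, 142 and 148, so that neither gene's groups overlapped.

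The members that fell with doxorubicin were longer genes than those that rose, as a description. The 12 members that fell span a median of 33.5 kb of genome (20.1 to 76.8), the 31 that rose 16.1 kb (3.9 to 328) and the 4 not called 9.14 kb. Among all tested genes the medians were 25.9 kb for those called lower and 18.3 kb for those called higher. Across the 47 members Spearman's rho of span with the log2 fold change was −0.29, and across 12699 tested genes −0.09. These are correlations across genes, which share the same libraries and are not independent replicates. Pola1 (328 kb) and Prim2 (216 kb), the longest members, rose with the drug.

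**Figure D5:**
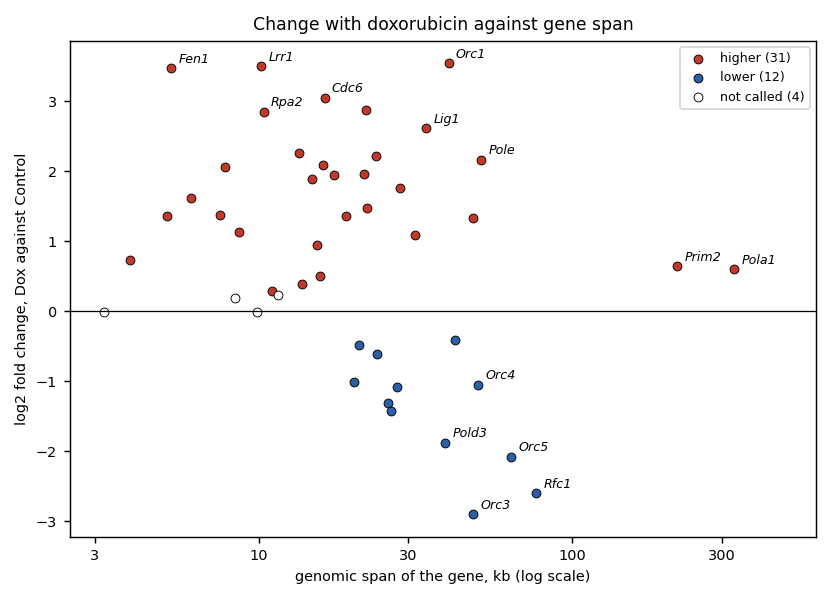
Log2 fold change of each member in Dox against Control over the genomic span of the gene in kb, on a log axis, coloured by call. All 12 members called lower span at least 20.1 kb, and members of that length or longer are found among those called higher too, up to Pola1 and Prim2.

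Several members share exon sequence with a gene on the other strand, and the sources used here do not say whether reads were counted by strand, although the library kit preserves it. The share of exon bases covered by such a gene was 78.8% for Fen1 (Gm10143, not listed), 67.3% for Gins2 (Gse1), 52.5% for Chaf1a (Ubxn6) and 29.8% for Orc2 (Nif3l1). With doxorubicin Gse1 rose (3.45) as Gins2 did (2.06), whereas Ubxn6 rose (0.44) where Chaf1a fell (−1.08), and Nif3l1 rose (1.11) where Orc2 fell (−0.42). The values of these 4 members are uncertain to the extent that reads of both strands were counted together. For Rfc2, Rfc4, Rfc5 and Orc1 the shared part was 10.7% to 15.1%.

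Other genes of the replication pathway, from lists that hold none of the 47 members, were counted in the same way, and their counts with doxorubicin are to be read against the 43.9% of all tested genes called higher and 39.8% called lower, those with the siRNA against 36.4% and 31.2%. Of 30 other replisome and licensing genes 26 rose and 2 fell with the Hif1a siRNA (median 1.03), and 16 rose and 11 fell with doxorubicin (median 0.60), which is near those shares. Recql4, a helicase of replication initiation, was at 5.56 ± 1.3 in Control, 2 ± 0.11 in NC_siRNA, 14 ± 0.72 in Hif1a_siRNA and 77.6 ± 2.1 in Dox (2.80 ± 0.13 and 3.80 ± 0.12 in the 2 comparisons). Ticrr, which brings Cdc45 to the helicase, changed by 1.85 and 0.81, Pole4 by 1.27 and 1.04, and the RNase H2 subunit gene Rnaseh2a by 1.11 and 3.10. Of 10 fork checkpoint genes 8 rose with the siRNA, and 5 rose and 4 fell with the drug. The checkpoint kinase gene Chek1 changed by 3.27 and 1.89, the clamp subunit Rad9a by 1.51 and 2.74, the phosphatase Cdc25a by 0.81 and 1.84, and the ATR activator Etaa1 by 1.20 and −1.36. Nucleotide supply genes rose in 7 of 8 cases with the siRNA and 6 of 8 with the drug. In this list ribonucleotide reductase was split by the drug: the small subunit Rrm2 rose from 50.1 ± 3.1 to 257 ± 25 and the large subunit Rrm1 fell from 165 ± 5 to 47.1 ± 4.3. Tyms, which makes thymidylate, rose from 11.7 ± 0.47 to 40.4 ± 0.68 with the drug.

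Regulators of the G1/S transition were mixed. Of 25 E2F and G1/S genes 17 rose and 6 fell with the siRNA, and 12 rose and 11 fell with the drug, the latter close to the shares among all tested genes (43.9% and 39.8%). The cyclin D1 gene Ccnd1 rose in both (3.47 and 4.31), and the inhibitor genes Cdkn1a (−1.86 and −1.53) and Cdkn1b (−1.74 and −2.75) fell in both. Cdk2 rose with the siRNA (1.75) and fell with the drug from 342 ± 30 to 20.3 ± 1.8 (−4.08 ± 0.09), and Ccna2, the S phase cyclin, did likewise (1.75 and −1.45). Cdk2 lies within the annotated span of Pmel, which rose with the drug. How reads of overlapping genes were counted is not known, and its part in the Cdk2 values was not tested. All 15 mitosis genes rose with the siRNA (median 1.55) and fell with the negative control siRNA (median −1.01), and with the drug 7 rose and 8 fell (median −0.31). Mki67 went from 450 ± 5.8 to 114 ± 0.45 and Top2a, the target of doxorubicin, from 687 ± 22 to 65.6 ± 5.3 with the drug, while Aurka rose from 62.9 ± 3.8 to 219 ± 17. Bub1 (2.12 and 1.07) and Kif11 (1.74 and 0.49) rose in both.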

How the data were processed

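RNA-seq libraries, made with a stranded mRNA kit per the labels' protocols, were deposited by the authors as raw read counts per gene, 1 table per library. The submitters' processing notes list the mm10 build and, without roles, StringTie 2.1.3b, HISAT2 2.1.0, Bowtie2 2.3.4.1, Trimmomatic 0.38 and FastQC 0.11.7; the counter, its strand setting and its gene filter are not given in the sources used here. The genes listed differ between groups, so tests used the 12721 gene IDs listed for all 5 groups; the Control tables left symbols blank for genes that RefSeq (GRCm38.p6) names by ID, 1491 in all, and repeated IDs were kept once. No sample was left out.

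Counts were tested with edgeR 4.0.16 (R 4.3.3): TMM factors, a minimum count of 10 that removed 0 genes, 1 coefficient per group over all 15 libraries, robust quasi-likelihood fits with 10 residual degrees of freedom, and Benjamini-Hochberg adjustment over all tested genes per comparison. Higher, lower, rose and fell mean an adjusted p under 0.05. Alternatives were other size factors, DESeq2 1.42.0, limma-voom (limma 3.58.1), a p of 0.01, other filters, fits of only the groups compared, the replicate number as a term, and leaving out each library. Every pair of libraries within a group differed by more than counting noise (chi-square per degree of freedom 3.56 to 34.49).

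All library values are given for the member of each role group with the smallest adjusted p in the knockdown and in the doxorubicin comparison, and for members called against most of their role group; of other lists, the 3 genes with the smallest adjusted p in each are named, except 1 that is not reported here. The members and the gene lists were chosen with earlier results of these data known. Gene spans and promoter windows came from RefSeq on GRCm38.p6, the assembly of mm10. Exon overlaps, merged exon lengths and longest transcripts came from the GENCODE mouse annotation.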

Additional observations from a re-analysis of the deposited data

Results flagged for a closer look

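The change with doxorubicin differed between cells with and without the Hif1a siRNA for 17 of the members whose libraries are given in full. The edgeR test was of the difference itself (the log2 fold change after the siRNA minus that without it). Rfc1, Pold3 and Pole2, also given in full, were not called. Among all tested genes this test called 32.3% lower and 26.3% higher. The members given in full were picked by the knockdown and doxorubicin comparisons, which share groups with this test. Among helicase and origin genes the difference was −1.51 for Mcm2, −1.80 for Mcm4, −1.02 for Orc1, −1.03 for Orc6 and 0.47 for Orc3, the only one of the 17 above 0. In loading and firing it was −1.89 for Mcm10, −0.85 for Cdc7 and −0.63 for Dbf4. For the clamp and polymerases it was −1.36 for Pcna, −0.86 for Pold1 and −2.03 for Pole. For Fen1 and Lig1 it was −1.83 and −1.37. It was −0.51 for Chaf1b, −0.79 for Timeless, −0.38 for Tipin and −3.07 for Lrr1. The groups compared differ in transfection as well as in Hif1a, since no group received the negative control siRNA with doxorubicin, and these cannot be told apart. The time since transfection, not stated for Hif1a_siRNA, may differ too and cannot be told apart from them. The difference for Tipin was not called without replicate 3 of Dox (−0.29, edgeR adjusted p = 0.055).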

How the results depend on the processing

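Counts of members called stayed within 1.5 times the reported ones under the alternatives, with these exceptions, whose cause was not tested. In the knockdown comparison 1 member (Orc3) was lower with only the groups compared, against 0. In NC_siRNA against Control 1 member was higher, against 2, with upper-quartile factors, limma-voom, an adjusted p under 0.01 or only the groups compared, and 1 to 2 leaving out 1 library. Lower members of Hif1a_siRNA against Control numbered 5, against 3, with upper-quartile factors, DESeq2 or only the groups compared. Higher members of Hif1a_siRNA_Dox against Dox numbered 7, against 11, at an adjusted p under 0.01. Higher members of the difference of doxorubicin effects numbered 4, against 2, with RLE size factors or DESeq2. There the difference for Rfc1 (−0.03, not called) turned to 0.05 with RLE and DESeq2 and ran from −0.14 to 0.03 leaving out 1 library, and that for Pold3 (−0.18, not called) ran from −0.48 to 0.08, above 0 without replicate 3 of Dox (0.01) or replicate 1 of Hif1a_siRNA_Dox (0.08). Leaving out 1 library, members higher with knockdown numbered 42 to 44, those lower in NC_siRNA 33 to 36, those higher with doxorubicin 30 to 31, and those lower in the difference 34 to 36. Same-numbered libraries of different groups did not deviate together (30 correlations from −0.162 to 0.087), so the numbers were not taken as pairs; with a replicate block 44 members were higher with knockdown, 31 higher and 12 lower with doxorubicin, and 35 lower in the difference. Depth limits Lrr1, Cdc6, Orc1 and Gins1 most, which have the fewest reads in Control and NC_siRNA.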
